A study of Mus musculus with 5 samples.

Results

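C-type lectin receptors are membrane proteins whose extracellular C-type lectin domain recognises sugars, lipids or proteins of microbes, dying cells and other host cells. Their transcripts were measured by bulk RNA sequencing in cultured mouse peritoneal macrophages, the phagocytes of the abdominal cavity. Members were all genes whose symbol is Clec followed by a number and a letter, or Cd209a to Cd209g (pseudogene names ending in -ps would be left out, and none occurred), which gave 40 of the 38463 gene symbols in the deposited table. Of the 40 members, 17 passed the filter on low values (at least 1 FPKM in at least 2 libraries) and were tested. FPKM scales the fragments of a transcript by its length and by the library's mapped reads, so levels of different genes can be set beside each other. The symbol rule also takes in genes that are not macrophage surface receptors, among them Clec16a, an endosomal protein of mitophagy, and the secreted proteins Clec11a and Clec3b. It further takes in Clec2f and Clec2j, which the gene annotation GENCODE M21 lists as pseudogenes though their names lack -ps.

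The wild-type group had 3 libraries, from mice of strain C7/BL6 as the labels spell it. The knockout group had 2 libraries, from LysMCre-Nrp1fl/fl mice with the genotype Nrp1-/-, in which the lysozyme M promoter drives Cre recombinase in myeloid cells and removes floxed Nrp1, the gene of the semaphorin and VEGF co-receptor neuropilin 1. Cells of both groups were grown in F12 DMEM with 10% fetal bovine serum, and no stimulus is named. Age and sex of the mice, and whether wild-type mice carried Cre, are not given in the sources used here, and because the strain labels differ with genotype, strain and loss of Nrp1 cannot be told apart. No label states that replicate libraries are different mice, and p-values therefore reflect library-to-library spread, which may be technical. In bulk RNA, fewer cells of a type and less RNA per cell cannot be told apart.

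Dectin-1 (Clec7a) binds fungal beta-glucans and signals through a tyrosine motif in its own tail. Dectin-2 (Clec4n), which binds mannans, and Mincle (Clec4e), which binds mycobacterial glycolipids, have short tails and pair with the Fc receptor gamma chain (Fcer1g), and MCL (Clec4d) associates with Mincle. All lead to the kinase Syk and the adaptor Card9 and from there to NF-kB. Other family members, such as Clec12a and the DCIR receptor Clec4a2, carry inhibitory motifs that recruit phosphatases.

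The 4 receptors just named for fungal and mycobacterial ligands were the most abundant members in every library, and all 4 lie on chromosome 6. Promoter windows of 300 bases (250 before and 50 after the annotated start, from RefSeq, build GRCm38.p6) matched 32 of the 40 members by symbol. Among tested members, Clec4n, the highest by mean FPKM, and Clec10a had no window and are missing from the shares below. The windows of Clec4d, Clec4e and Clec7a are shown as those of abundant receptors, and that of Clec4b2, a gene next to Clec4n in the same gene cluster, as that of a member below 0.1 FPKM in all libraries; capitals mark GAGGAA, the core of the PU box bound by the macrophage factor PU.1, on either strand (TTCCTC on the other).
Clec4d, chr6:123261857-123262156, plus strand: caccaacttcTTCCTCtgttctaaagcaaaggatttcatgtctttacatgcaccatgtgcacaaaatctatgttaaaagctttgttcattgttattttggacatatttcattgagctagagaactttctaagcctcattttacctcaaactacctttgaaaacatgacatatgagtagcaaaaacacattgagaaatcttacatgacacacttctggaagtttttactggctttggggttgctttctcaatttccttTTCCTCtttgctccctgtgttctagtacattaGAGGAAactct
Clec4e, chr6:123289822-123290121, minus strand: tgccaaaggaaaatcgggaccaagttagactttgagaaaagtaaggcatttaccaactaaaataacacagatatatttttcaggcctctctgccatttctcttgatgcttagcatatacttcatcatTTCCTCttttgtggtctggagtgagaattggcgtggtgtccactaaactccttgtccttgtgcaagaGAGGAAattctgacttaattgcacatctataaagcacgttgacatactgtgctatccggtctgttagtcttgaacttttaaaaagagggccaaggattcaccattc
Clec7a, chr6:129472730-129473029, minus strand: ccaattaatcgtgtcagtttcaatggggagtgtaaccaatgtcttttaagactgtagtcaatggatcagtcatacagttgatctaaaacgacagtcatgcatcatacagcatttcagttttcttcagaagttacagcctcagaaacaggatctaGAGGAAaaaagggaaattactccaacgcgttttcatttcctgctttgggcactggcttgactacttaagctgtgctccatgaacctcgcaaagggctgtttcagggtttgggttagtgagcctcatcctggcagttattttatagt
Clec4b2, chr6:123172773-123173072, plus strand: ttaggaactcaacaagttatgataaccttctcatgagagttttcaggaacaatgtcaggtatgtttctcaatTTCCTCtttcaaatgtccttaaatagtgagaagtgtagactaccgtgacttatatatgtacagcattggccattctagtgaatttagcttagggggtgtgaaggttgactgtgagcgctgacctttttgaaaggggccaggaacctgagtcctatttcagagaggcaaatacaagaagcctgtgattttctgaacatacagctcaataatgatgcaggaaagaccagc
The core occurred 3 times in the Clec4d window, 2 times in that of Clec4e and 1 time each in those of Clec7a and Clec4b2, so the low neighbour held it too. A match was present in 9 of the 15 tested members with a window (60%), in 7 of 17 members that were not tested (41.2%) and in 31.3% of the 27025 genes with a window. The longer form GAGGAAGT, which contains that core, was in 0 of these 32 members and in 3.69% of all genes. Over the 7838 tested genes with a window, the core was in 30.8% and the longer form in 4.17%. The AP-1 motif TGANTCA was in 3 of 15 tested and 5 of 17 other members (6.02% of tested and 8.97% of all genes), the C/EBP motif TTGCNNAA in 4 and 2 (10.1% and 12.2%), and the GATA motif AGATAA in 1 and 1 (7.54% and 12.7%), each searched on both strands. The PU box core was added to the search after the sequences had been read, and a match is a description of letters, not a binding site.

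Clec4n, Clec4d, Clec7a and Clec4e together made up 88.4% to 92.8% of the summed FPKM of all 40 members in a library. Values are given in replicate order, 3 wild-type and then 2 knockout. Clec4n read 647, 495 and 819 FPKM, then 553 and 688. Clec4d, its neighbour, had wild-type values of 640, 715 and 507 FPKM, beside 525 and 756 for the knockout. Wild-type replicate 3 had the highest Clec4n and the lowest Clec4d of all libraries, and both knockout values of either gene lay within the wild-type range, except that knockout replicate 2 had the highest Clec4d. The ratio of Clec4n to Clec4d was 1.01, 0.693, 1.62, 1.05 and 0.911 in that order, so neither gene was the higher throughout. By mean FPKM over the 5 libraries they ranked 112 and 118 of 38463 symbols.

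Clec7a, the beta-glucan receptor, measured 409, 353 and 490 FPKM in the wild-type libraries, against 390 and 544 after the knockout. The knockout values lay on both sides of wild-type replicate 3, and the groups overlapped. GENCODE M21 lists this gene as a polymorphic pseudogene; its FPKM ranked 176 of all symbols here. Clec4e, the cord factor receptor Mincle, read 111, 190 and 124 FPKM over the wild-type libraries and 141 and 137 over the knockout libraries. The wild-type libraries differed among themselves by more than the knockout libraries did, and the knockout values lay between them. Clec4d exceeded Clec4e by 3.71 to 5.75 times, in all 5 libraries.

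**Figure D1:**
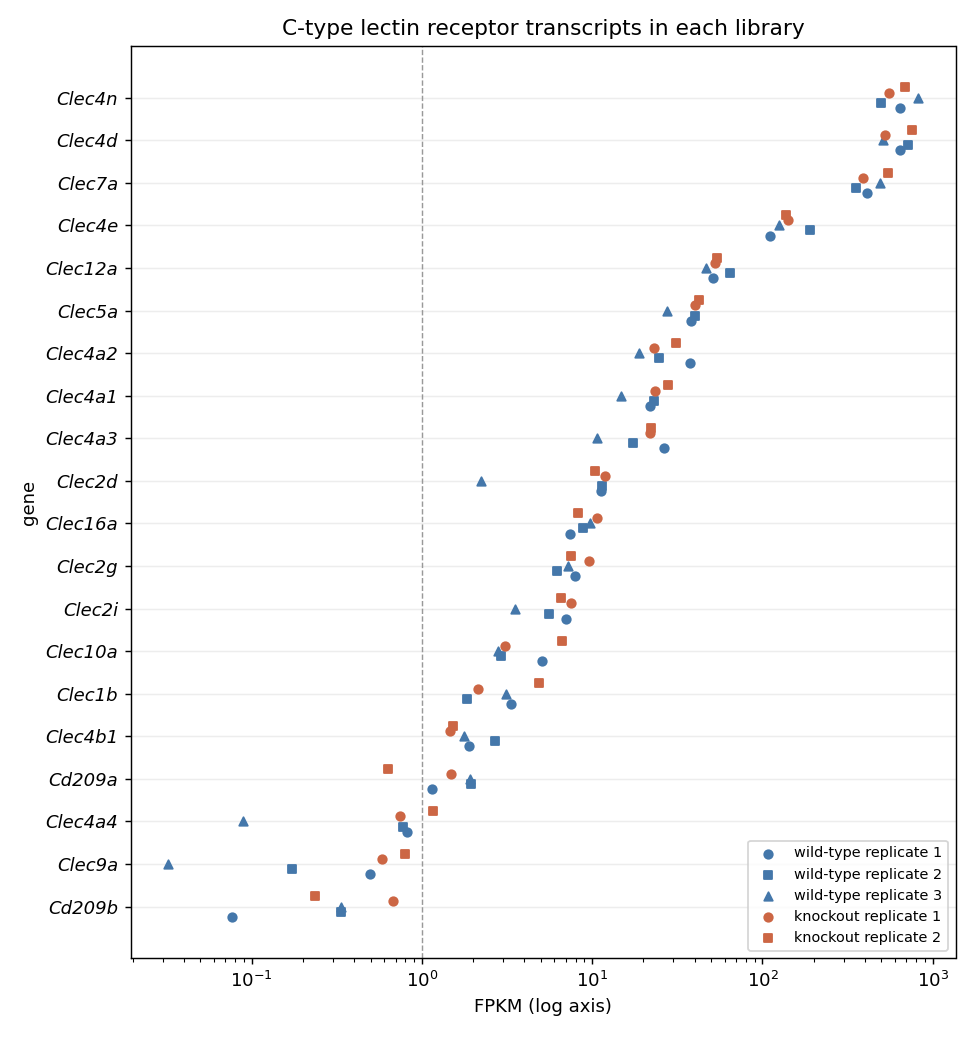
FPKM on a log axis of the 17 tested members and of the 3 untested members that reached 0.5 FPKM in a library, ordered by mean, with one point per library (blue wild-type, orange knockout; marker shape gives the replicate) and a dashed line at 1 FPKM. The top 3 genes stand between 353 and 819 FPKM, blue and orange points overlap for most genes, and wild-type replicate 3 is far below the rest for Clec2d, Clec4a4 and Clec9a.

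Clec7a was above Clec4e in all 5 libraries without overlap of their ranges, at 3.11 times its mean FPKM, and likewise Clec4e above Clec12a at 2.61 times and Clec12a above Clec5a at 1.43 times. For the other 13 of 16 neighbouring pairs the ranges over libraries overlapped. Clec4n and Clec4d kept their order in 3 of 5 libraries, and Clec4b1 and Cd209a in 3 of 5.

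Clec12a (MICL), an inhibitory receptor for uric acid crystals, had wild-type values of 51.5, 64.8 and 46.5 FPKM, beside 52.9 and 53.8 for the knockout. The knockout values differed little and lay inside the wild-type range. Clec4a2 (DCIR), whose tail carries an inhibitory tyrosine motif, measured 37.8, 24.6 and 18.8 FPKM in the wild-type libraries, against 23.1 and 30.9 after the knockout. Its highest and lowest values were both wild-type. The DCIR-related genes Clec4a1 and Clec4a3 came next. Clec4a1 read 21.8, 23.0 and 14.7 FPKM, then 23.3 and 27.8. Clec4a3 read 26.3, 17.4 and 10.7 FPKM, then 22 and 22.2. For Clec4a1 both knockout values were above all wild-type values, the nearest pair being 23.0 and 23.3, while for Clec4a3 wild-type replicate 1 was the highest. Of the 50-base stretches of the longest Clec4a2 coding transcript 8.92% also occur in transcripts of other genes, 4.69% in Clec4a4, and of Clec4b1 9.73% occur in Clec4a2, so reads can be shared among these genes. Clec4a1 and Clec4a3 had none such.

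Clec5a (MDL-1), an activating receptor that pairs with the adaptors encoded by Tyrobp and Hcst, read 37.9, 40.2 and 27.6 FPKM over the wild-type libraries and 40.3 and 42.4 over the knockout libraries. The groups did not overlap, by a margin of 40.2 against 40.3. Clec4b1, a DCAR gene next to the DCIR genes, had wild-type values of 1.90, 2.68 and 1.76 FPKM, beside 1.47 and 1.51 for the knockout. Here both knockout values were below all wild-type values. Clec10a (MGL1), a receptor for galactose and N-acetylgalactosamine, measured 5.08, 2.90 and 2.80 FPKM in the wild-type libraries, against 3.07 and 6.61 after the knockout, with 1 knockout library inside the wild-type range and 1 above it. Its paralog Mgl2, with which 10.6% of its 50-base stretches are shared, stood at 0 to 0.244 FPKM.

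Several Clec2 genes encode ligands of the NKR-P1 receptors of natural killer cells. Clec2d (Clr-b), the ligand of an inhibitory NKR-P1 receptor, read 11.3, 11.5 and 2.23 FPKM over the wild-type libraries and 11.9 and 10.4 over the knockout libraries. Wild-type replicate 3 stood apart, at 0.195 times the mean of the other wild-type libraries, and the remaining 4 values were close together. Clec2g had wild-type values of 7.94, 6.23 and 7.18 FPKM, beside 9.60 and 7.47 for the knockout, and Clec2i at 7.03, 5.58 and 3.50 in wild-type and 7.53 and 6.53 in knockout. Clec2g had its highest value in knockout replicate 1 and showed no low value in wild-type replicate 3, whereas Clec2i was lowest there. Clec2g overlaps a gene annotated as antisense over 23826 bases and Clec2i overlaps BC035044 on the opposite strand over 3539 bases; whether counting used strand is not given in the sources used here, so their values are uncertain. The 3 tested Clec2 genes share 1.98% (Clec2d) to 5.87% (Clec2i) of their stretches with other genes.

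Clec1b (CLEC-2), the podoplanin receptor best known from platelets, measured 3.34, 1.84 and 3.11 FPKM in the wild-type libraries, against 2.13 and 4.88 after the knockout. The groups overlapped. Megakaryocyte and platelet markers (7 genes) summed to 0.42 to 1.18 FPKM in wild-type and 1.11 to 1.44 in knockout. The largest were Itga2b, at most 0.912 FPKM (knockout replicate 1), and Ppbp, at most 0.706 (knockout replicate 2). The part of these markers in the Clec1b values was not tested. Clec1b shares 474 bases of its locus with Clec9a on the same strand. Cd209a, the mouse gene named DC-SIGN, read 1.14, 1.93 and 1.92 FPKM over the wild-type libraries and 1.47 and 0.634 over the knockout libraries. Only knockout replicate 2 was below the wild-type range. Clec16a had wild-type values of 7.37, 8.84 and 9.75 FPKM, beside 10.7 and 8.20 for the knockout, and overlapped between groups. It overlaps a gene annotated as antisense over 14292 bases, so its values are uncertain in the same way as those of Clec2g.

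The 23 members that did not pass the filter were low or listed at 0 throughout. Clec4a4 (DCIR2) measured 0.814, 0.77 and 0.0894 FPKM in the wild-type libraries, against 0.744 and 1.16 after the knockout. Clec9a (DNGR-1), the receptor for actin of dead cells that marks type 1 conventional dendritic cells, read 0.496, 0.172 and 0.0324 FPKM over the wild-type libraries and 0.582 and 0.797 over the knockout libraries. Both knockout values of Clec9a were above the wild-type values, below the level at which genes were tested. The same held for Clec4g and Clec4b2, while both knockout values of Clec3b were below the wild-type values, all under 0.1 FPKM. With no filter, the groups did not overlap for 7 of 33 members, beside 18.1% of all genes. Cd209b (SIGNR1) stood at 0.0764 to 0.337 FPKM in wild-type and at 0.681 and 0.235 in knockout. Clec11a, Clec1a, Clec3b, Clec2l, Clec4g (LSECtin), Cd209g, Clec4b2, Cd209e, Clec2h, Clec4f (a Kupffer cell receptor), Cd209c, Cd209d and Cd209f reached at most 0.188 FPKM. Clec12b, Clec14a, Clec18a, Clec2e, Clec2f, Clec2j and Clec3a were listed at 0 in all 5 libraries. With no counts in the table the depth is unknown, so a listed 0 does not set an upper limit.

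Of the 40 members, 25 lie on chromosome 6, where members of very different level lie side by side. The Dectin-2 cluster spans 368 kb (chr6:122921848-123289870, GRCm38) and holds 9 members, in the order Clec4a1, Clec4a3, Clec4a4, Clec4b1, Clec4a2, Clec4b2, Clec4n, Clec4d and Clec4e. Their mean FPKM over libraries ran from 0.0156 for Clec4b2 to 640 for Clec4n, which are direct neighbours among the members. The last 3 genes in this order were 3 of the 4 most abundant members. In the Dectin-1 cluster of 130 kb (chr6:129342691-129472779) the outer genes Clec12a (53.9 FPKM) and Clec7a (437 FPKM) flanked Clec12b (0), Clec1b (3.06), Clec9a (0.416) and Clec1a (0.0606). In the Clec2 cluster of 534 kb (chr6:128652416-129186534), Clec2i, Clec2g and Clec2d stood at means of 6.03, 7.68 and 9.45 FPKM. Clec2h and Clec2e, and the listed pseudogenes Clec2j and Clec2f, were at or below 0.00994 there.

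**Figure D2:**
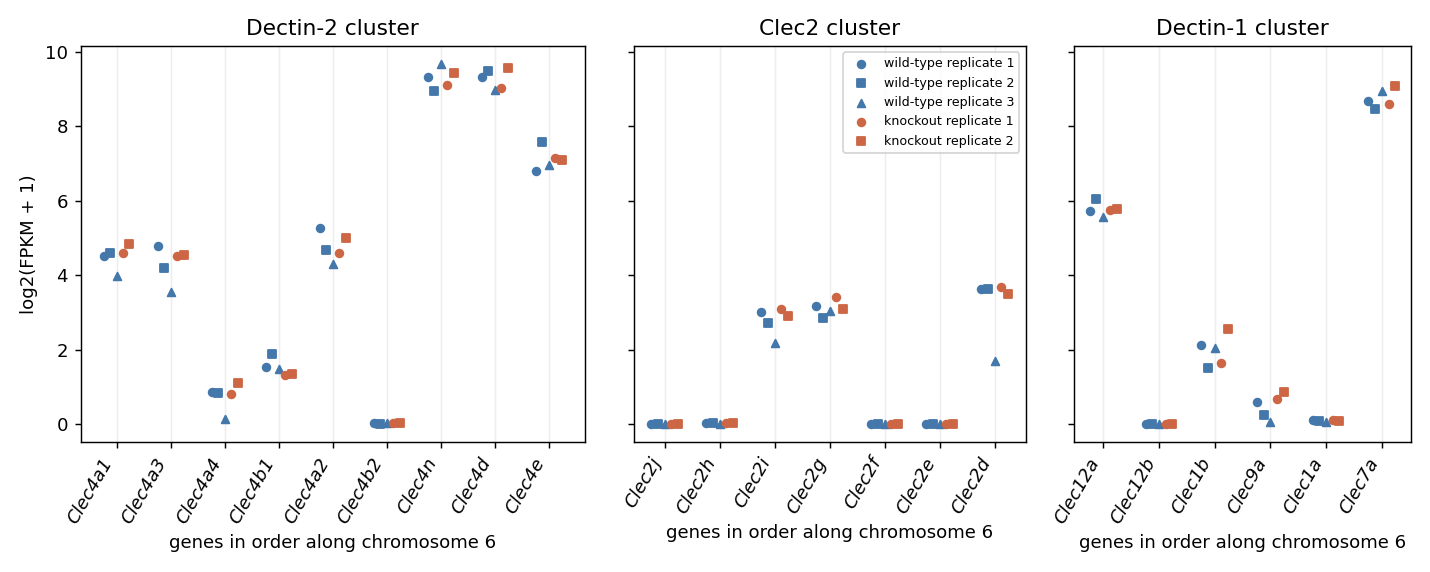
log2(FPKM + 1) of the members of 3 gene clusters on chromosome 6, in their order along the chromosome (spacing not to scale), with one point per library in the same colours and shapes as in the plot of levels. Clec4n, Clec4d and Clec4e stand highest at the end of the Dectin-2 cluster, beside Clec4b2 near 0, and Clec7a stands highest in the Dectin-1 cluster.

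The comparison of knockout with wild-type asks whether loss of Nrp1 in myeloid cells goes with another receptor repertoire. None of the 17 tested members passed the test. By limma on log2(FPKM + 1), fitted over 12214 genes with Benjamini-Hochberg adjustment, 0 members were higher and 0 lower at an adjusted p under 0.05, where 0.0409% of all tested genes were called higher and 0.0164% lower. At an unadjusted p under 0.05, 0 members were higher and 0 lower (1.19% and 0.63% of all tested genes). The smallest unadjusted p was 0.20 (Clec4a1), and adjusted p ran from 0.927 to 0.997. For 1 gene taken alone, an exact rank test (two-sided) of 3 against 2 cannot go below 0.2.

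Log2 fold changes of the members ran from -0.39 (Cd209a) to 0.61 (Clec2d), with a median of 0.16 beside 0.11 for all tested genes. They were positive for 13 of 17 members, beside 63.9% of all tested genes. Without wild-type replicate 3 the median was 0.08 and 10 of 17 were positive (53.4% of all genes, with a median of 0.02), and without knockout replicate 2 the median was -0.02 and 8 of 17 were positive (63.3% of all genes, with a median of 0.11). The groups did not overlap for 3 of 17 members (17.6%), beside 20.8% of all tested genes. Clec4a1 and Clec5a had the higher knockout values (2 members, beside 13.9% of all tested genes) and Clec4b1 the lower (1 member, beside 6.95%). Their log2 fold changes were 0.37 ± 0.26 (SE), 0.24 ± 0.23 and -0.31 ± 0.24, with a limma adjusted p of 0.927 for each. Without wild-type replicate 3 these became 0.18, 0.08 and -0.39.

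The intervals show what these libraries could not settle. For 11 of 17 members the 95% interval of the log2 fold change lay between -1 and 1. These include the abundant receptors, with -0.76 to 0.66 for Clec4n, -0.65 to 0.72 for Clec4d, -0.49 to 0.80 for Clec7a and -0.64 to 0.67 for Clec4e. The FPKM + 1 scale understates changes of low genes, and the count includes Clec4b1 at 1.47 to 2.68 FPKM. With a pseudocount of 0.1 the log2 fold change of Clec4b1 was -0.45 (SE 0.36), against -0.31 (SE 0.24). The widest interval, -0.79 to 2.01, was that of Clec2d, whose log2 fold change went from 0.61 to -0.04 without wild-type replicate 3. Those of Cd209a, Clec4a3, Clec2i, Clec10a and Clec1b also reached past 1 or -1. The values were 0.36 and 0.04 for Clec4a3 with and without wild-type replicate 3, and 0.37 and 0.14 for Clec2i.

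**Figure D3:**
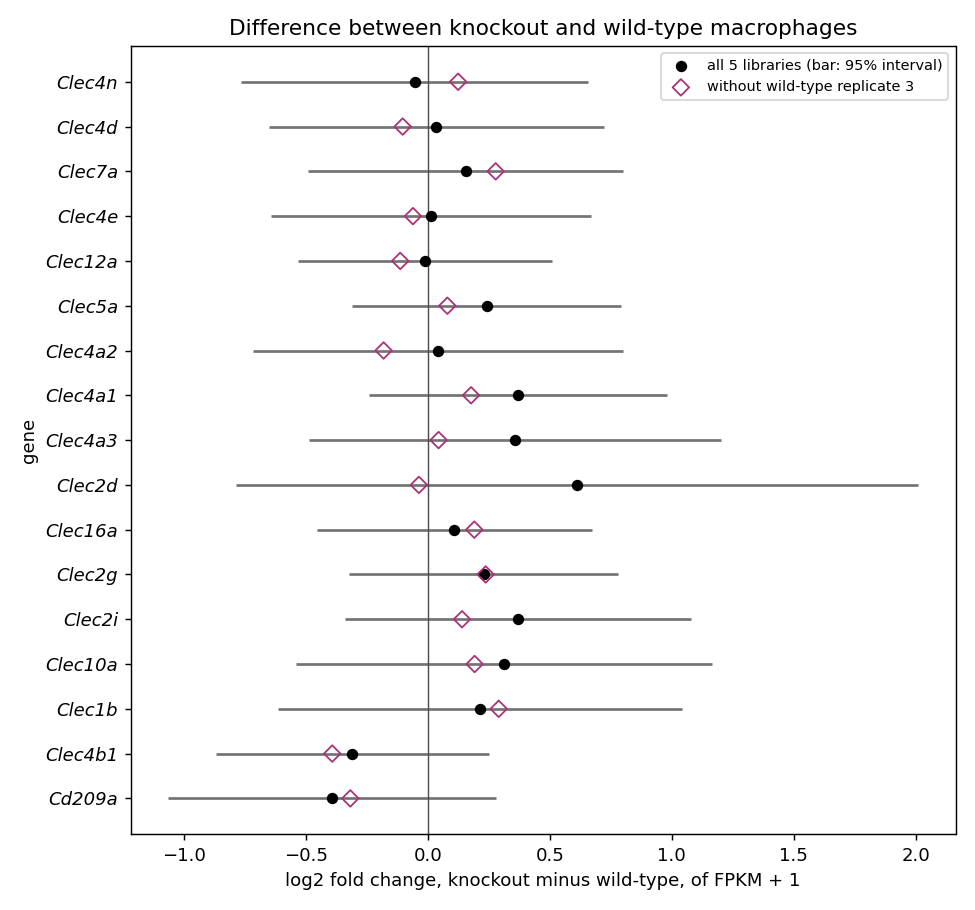
Log2 fold change of FPKM + 1, knockout minus wild-type, for the 17 tested members (black points, 5 libraries; bars, 95% interval from limma; open diamonds, without wild-type replicate 3). Every bar crosses 0, and the diamond of Clec2d stands at -0.04 against 0.61.

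Across the libraries the summed FPKM of a library was 539101 to 629135, and 11014 to 12020 genes reached 1 FPKM; wild-type replicate 3 had the largest sum but the fewest such genes. Nrp1 read 24.3, 19.0 and 11.5 FPKM, then 7.63 and 7.70 (log2 fold change -1.09, SE 0.32, limma adjusted p 0.927). Lyz2 was listed at 0 in all wild-type and at 53.0 and 64.3 FPKM in the knockout libraries (log2 fold change 5.89, limma adjusted p 0.00042). With wild-type values at 0 the size of this change depends on the pseudocount, and it was 9.19 with a pseudocount of 0.1. The limma adjusted p of Lyz2 was 0.04997 with no filter on low values. Why Lyz2 was listed at 0 in wild-type libraries was not tested, and a listed 0 does not show that its RNA was absent. Macrophage markers (8 genes in the table) summed to 3539 to 5616 FPKM in wild-type and 3577 to 3905 in knockout, with Emr1 at 183 to 222. Natural killer cell markers were at or near 0, with Ncr1, Nkg7, Gzma and Prf1 listed at 0 in all libraries, and T cell and B cell markers summed to at most 2.09 and 3.6 FPKM. Mesothelial markers summed to at most 1.39 FPKM, endothelial markers to 2.58 to 4.35, eosinophil markers to 0.908 to 1.72 and fibroblast markers to 12.4 to 32.2. Neutrophil markers summed to 36.0 to 100 FPKM, nearly all from S100a8 and Mmp8, with Ly6g listed at 0. Of the large and small peritoneal macrophage markers (sums of 130 to 203 and 85.2 to 94.9 FPKM), 0 passed in either direction by limma. At an unadjusted p under 0.05, 1 was higher and 0 lower in each list of 6 tested genes, beside 1.19% and 0.63% of all tested genes.

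Wild-type replicate 3 was the lowest of the 5 libraries for 9 of 17 tested members, beside 54.4% of all tested genes. It was the highest for 1 of 17 members, Clec4n, beside 21.4% of all tested genes. Mast cell markers (7 genes) summed to 176 FPKM in that library and to between 16.3 and 34.1 in the others, led by Tpsb2 at 144 FPKM; their part in the members' values was not tested. Dendritic cell markers, relevant for Clec9a and Cd209a, summed to 16.3 to 21.5 FPKM in wild-type and 20.1 to 21.5 in knockout, most of it Cd24a at 12.7 to 15.7. In that list Batf3 read 2.62 to 4.63 FPKM and Zbtb46 0.695 to 1.60, while Flt3 and Xcr1 read no more than 0.0317; their part in the values of Clec9a and Cd209a was not tested. Knockout replicate 2 had the highest value for 6 of 17 members, beside 20.8% of all tested genes, and its log2(FPKM + 1) exceeded the mean of the 5 libraries by 0.64 for Clec10a and 0.58 for Clec1b. The same library was lowest for Cd209a, at -0.53.

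**Figure D4:**
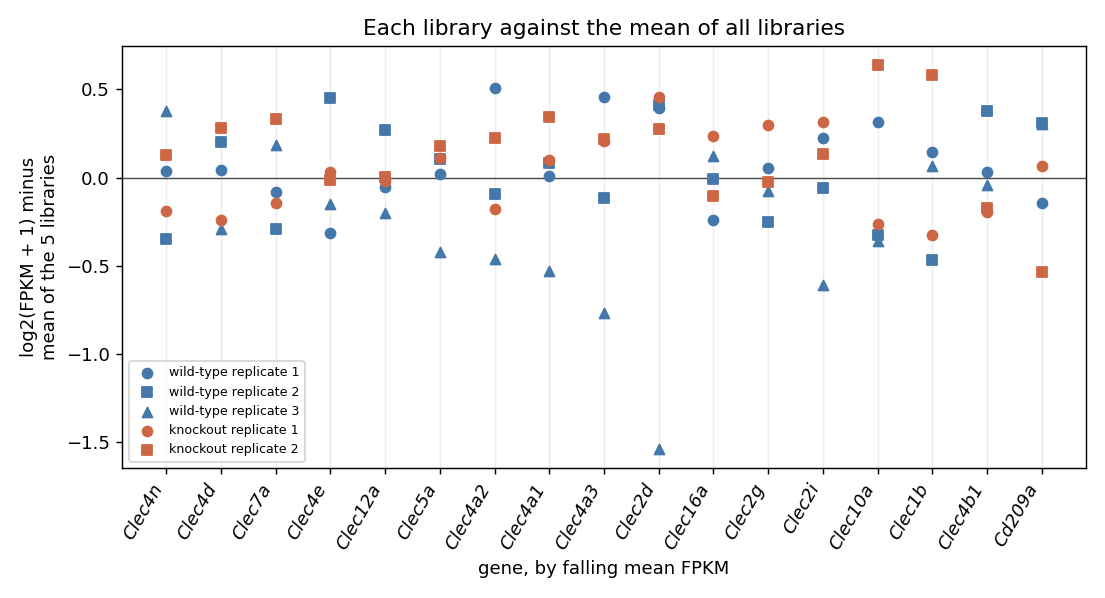
Log2(FPKM + 1) of each library minus the mean of the 5 libraries, for the 17 tested members by falling mean FPKM (blue wild-type, orange knockout; marker shape gives the replicate). Wild-type replicate 3 (blue triangles) lies lowest for 9 members, by 1.54 for Clec2d, and highest for Clec4n, at 0.38.

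The adaptor genes Fcer1g and Tyrobp stood above every C-type lectin receptor, by FPKM, in all 5 libraries. The gamma chain gene Fcer1g, partner of Dectin-2 and Mincle, had wild-type values of 1032, 937 and 1069 FPKM, beside 904 and 955 for the knockout. Tyrobp, which encodes the adaptor DAP12, measured 2308, 2175 and 3157 FPKM in the wild-type libraries, against 2157 and 2457 after the knockout. Both genes overlapped between the groups, and Tyrobp was highest in wild-type replicate 3. Syk, the kinase downstream of both, read 105, 87.2 and 61.8 FPKM over the wild-type libraries and 115 and 96.7 over the knockout libraries. Of the 18 adaptors and proximal kinases, all tested, 0 passed by limma in either direction and 0 had an unadjusted p under 0.05; 10 had a positive and 8 a negative log2 fold change, with a median of 0.06 beside 0.11 for all genes (0.0094 without wild-type replicate 3). The 4 smallest p in this list belonged to Syk (log2 fold change 0.35), Vav3 (0.59), Lyn (0.42) and Blnk (-0.22), and without wild-type replicate 3 those of Syk, Vav3 and Lyn were 0.14, 0.0023 and 0.03.

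In the CARD9 module and the NF-kB subunits (15 tested) 0 genes passed by limma in either direction, 0 had an unadjusted p under 0.05, 9 were positive and 6 negative, with a median of 0.10. When wild-type replicate 3 was left out, 5 were positive and 10 negative, with a median of -0.04. Card9, the adaptor shared by Dectin-1, Dectin-2 and Mincle, had wild-type values of 40.2, 42.6 and 13.3 FPKM, beside 40.3 and 33.9 for the knockout. The low value of wild-type replicate 3 set the sign, since the log2 fold change of 0.36 became -0.16 without it. Among the smallest p were those of Malt1 (log2 fold change 0.54), the paracaspase partner of Bcl10 (0.13 without wild-type replicate 3), Rel (0.42, and 0.07 without that library) and Nfkb2 (-0.27 and -0.12). Among negative regulators (11 tested) 0 passed and 0 had an unadjusted p under 0.05. In that list 7 were positive and 4 negative, with a median of 0.13 (0.06 without wild-type replicate 3). Over all tested genes 63.9% were positive, with a median of 0.11. Without wild-type replicate 3 these were 53.4% and 0.02. The ubiquitin ligase gene Cbl had a log2 fold change of 0.73 (0.42 without wild-type replicate 3), the phosphatase gene Ptpn6, whose product SHP-1 docks on inhibitory tails, -0.47, Inpp5d 0.42 (0.26 without that library) and Socs1 0.32 (0.20). Ptpn6 measured 285, 256 and 305 FPKM in the wild-type libraries, against 261 and 159 after the knockout, so knockout replicate 2 alone was low, and without it the log2 fold change was -0.11.

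Of 45 other genes with a C-type lectin fold, 10 passed the filter on low values. Of these, 7 had a positive log2 fold change, with a median of 0.27, beside 63.9% and 0.11 for all tested genes. Without wild-type replicate 3, 8 were positive with a median of 0.09, beside 53.4% and 0.02. By limma 0 passed, and 0 were higher and 1 lower at an unadjusted p under 0.05 (1.19% and 0.63% of all tested genes). That gene, Cd72, an inhibitory receptor best known from B cells, read 7.20, 13.1 and 9.88 FPKM over the wild-type libraries and 6.22 and 3.18 over the knockout libraries. Its groups did not overlap (log2 fold change -0.98 ± 0.34, limma adjusted p = 0.927), and 6.95% of all tested genes were likewise separated and lower. Removing 1 library gave -1.37 to -0.58, the smallest change without knockout replicate 2. B cell markers (7 genes) read up to 1.37 FPKM each, the highest being Cd79a at 0.697 to 1.37, and their part in the Cd72 values was not tested. Olr1 (LOX-1), the receptor of oxidised LDL, had a log2 fold change of 0.44 and Cd302 one of 0.36, while that of Cd93 was 0.62 and 0.19 without wild-type replicate 3. The mannose receptor gene Mrc1 had wild-type values of 2.42, 2.07 and 0.87 FPKM, beside 2.44 and 2.29 for the knockout, and Colec12, a scavenger receptor with a collagen stalk, at 49.1, 36.7 and 42.4 against 26.6 and 43.9. Of these only Colec12 knockout replicate 1 lay below the wild-type range. The mannose receptor thus stood far below Clec4n, by FPKM, in all 5 libraries.

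Genes induced downstream of these receptors gave 0 passing members of 13 tested by limma. At an unadjusted p under 0.05, 1 was higher and 0 lower (1.19% and 0.63% of all tested genes). Log2 fold changes were positive for 11, beside 63.9% of all tested genes, with a median of 0.33 beside 0.11. Without wild-type replicate 3, 8 of 13 were positive and the median was 0.10, beside 53.4% and 0.02 for all genes. The cytokine gene Il1a measured 4.32, 4 and 1.60 FPKM in the wild-type libraries, against 6.16 and 8.14 after the knockout. Its groups did not overlap (log2 fold change 0.98 ± 0.36, limma adjusted p = 0.927), and 13.9% of all tested genes were likewise separated and higher. The log2 fold change of Il1a was 0.65 without wild-type replicate 3. The prostaglandin synthase gene Ptgs2 had 0.69 (0.44 without that library), Ccl3 0.44 (0.14) and the co-stimulatory gene Cd86 -0.39 (-0.32). Il6, Il10, Il12b, Il23a and Csf2 stood at or below 0.146 FPKM in all libraries, below the level at which genes were tested.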

How the data were processed

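The authors deposited FPKM per gene for 5 libraries. Per the labels' protocols, mRNA from 1 µg of total RNA was sequenced on an Ion Torrent platform and processed with Torrent Suite 4.4 and the Whole Transcriptome Analysis Plugin 4.2-r7, with TopHat2 and Bowtie2 on mm10 and Cufflinks for FPKM. Cufflinks values are estimates (the smallest above 0 is 6.8e-317), so reads could not be recovered, depth is unknown, and library number limits precision. Another 17 columns of that table, computed from FPKM by the authors, were left aside.

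The values of wild-type replicate 3 follow a name order that counts hyphens, unlike the table's names, in 2144 rows. They were matched back to their names, which raised Pearson's r across the 722 displaced expressed genes, against the mean of the other libraries, from 0.171 to 0.916. No row of the 40 members was displaced (0 of 40). Of the genes named with a fold change, Cd93 and Nfkb2 were in displaced rows. Rows named by a number (27) or differing only in case (50) were left out, and FPKM were summed over repeated symbols (165).

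Knockout was compared with wild-type in all 5 libraries by limma 3.58.1 (R 4.3.3) on log2(FPKM + 1), its moderated test, with trend, genotype as the single term, and Benjamini-Hochberg adjustment at 0.05 over genes with at least 1 FPKM in at least 2 libraries. The scale understates changes of low genes. The code was tested on simulated data and on a misordered copy of a column. All tested members were named, and Nrp1 and Lyz2 as a check of the group labels only. From each of 5 pathway lists the 4 genes of smallest unadjusted p were named, besides Fcer1g, Tyrobp, Syk, Card9, Mrc1, Mgl2 and Colec12. Other genes were named after their values were seen. A gene that this rule names is not reported here. Members and lists were chosen with earlier results of these data known. Positions and stretches of 50 bases come from GENCODE M21 (GRCm38, the mm10 assembly), and promoters from RefSeq. The alternatives were 13 in number, among them other scalings, filters, a pseudocount of 0.1, library weights and the removal of each library.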

Additional observations from a re-analysis of the deposited data

How the results depend on the processing

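No C-type lectin receptor passed in any of the 13 alternatives (limma, 0 higher and 0 lower, and 0 at an unadjusted p under 0.05), which include fits with 1 knockout library. Of 218 fold changes of members under an alternative, 187 kept their sign and 31 turned; none of the members had a called direction. Under median-of-ratios scaling, which moved the median of all genes from 0.11 to 0.0047, the log2 fold change turned for Clec4d (-0.087), Clec4e (-0.11), Clec4a2 (-0.076) and Clec16a (-0.0035); with libraries rescaled to equal sums for Clec4n (0.029) and Clec12a (0.070); with library weights for Clec4n (0.010), Clec4d (-0.049), Clec4a2 (-0.30), Clec4a3 (-0.062), Nfkb2 (0.02) and Card9 (-0.080). In the order as deposited it turned for Nfkb2 (1.75) and Cd93 (-0.12), whose rows are displaced there. Removing 1 library gave -0.24 to 0.12 for Clec4n, -0.23 to 0.30 for Clec4d, -0.085 to 0.40 for Clec7a, -0.14 to 0.24 for Clec4e, -0.11 to 0.12 for Clec12a, -0.18 to 0.30 for Clec4a2, -0.036 to 0.94 for Clec2d, -0.062 to 0.28 for Clec16a, -0.14 to 0.76 for Clec10a, -0.24 to 0.67 for Clec1b, -0.23 to 0.039 for Tyrobp, -0.16 to 0.65 for Card9 and -0.65 to 0.049 for Colec12. The members' median was -0.02 to 0.30 with 1 library removed.

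Over all genes, 5 were called higher and 2 lower. These counts were 2 and 1 in the order as deposited, 1 and 0 with no filter (499 and 283 at an unadjusted p under 0.05 by limma), 1 and 1 with the filter at 5 FPKM, 12 and 9 with library weights, and 3 were higher with a pseudocount of 0.1. With 1 library removed, 0 to 7 were higher and 0 to 7 lower; the 0 in each direction arose without knockout replicate 1 (36 and 34 at an unadjusted p under 0.05) and without knockout replicate 2 (41 and 26). In those fits the knockout arm is 1 library, assumed to vary like the wild-type libraries, so they say little about whether a receptor passes. Nrp1 passed with library weights (-1.43, limma adjusted p = 0.023). Groups did not overlap for 7 of 33 members with no filter (18.1% of all genes), and for 3 to 8 members with 1 library removed, where that share was 32.4% to 43.6% of all genes. The causes of these shifts were not tested.

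Whether the replicate numbers pair the libraries could not be decided. Deviations from the group means of same-numbered libraries correlated at -0.05 and -0.0084. The deviations of the knockout libraries from their own mean are mirror images of each other, so these correlations neither show nor exclude pairing. With the replicate number as a block, in which wild-type replicate 3 has a block of its own, 3 genes were called higher and 1 lower, and the log2 fold change turned for Clec4n (0.12), Clec4d (-0.10), Clec4e (-0.061), Clec4a2 (-0.18), Clec2d (-0.036), Tyrobp (0.039) and Card9 (-0.16). Depth is unknown, so what a listed 0 allows cannot be given.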
